A study of Oncorhynchus mykiss with 18 samples.

Results

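The genes cyp1a3, cyp2k4, mt2 and gpx4a of the rainbow trout (Oncorhynchus mykiss) take part in the chemical defence of the cell: 2 cytochrome P450 enzymes, a metallothionein and a glutathione peroxidase. They were chosen by name, with the results of these libraries known, because each had passed the threshold against solvent at 1.13 or 1.57 ng/L of 17α-ethinylestradiol (EE2), or at both. The threshold throughout is an adjusted p of 0.05 in the quasi-likelihood test of edgeR, with the Benjamini-Hochberg adjustment over 46999 features, and a gene past it is said to be called. A feature is a sum by gene or a single transcript matched to no gene, and all features tested are called genes below. The chosen genes are 4 of 61973 features counted, and they draw on 5 of the 79244 transcripts in the files. The groups, of 3 libraries each, were alevins (newly hatched fish that still carry yolk) kept in water with 0.01% dimethyl sulfoxide as solvent control, or with EE2, the synthetic estrogen of contraceptive pills. Measured EE2 was 1.13 ng/L in the lowest group and 1.57 ng/L in the next, followed by 6.22 ng/L, 16.3 ng/L and, in the highest, 55.1 ng/L. Exposure began at hatching and lasted 96 h, and whole fish were taken at 4 days post-hatch. Each library is a pool of 3 alevins. The labels leave unsaid whether replicate pools were drawn from different tanks and whether the EE2 water held the same solvent, and give no sex or strain. All values below are therefore averages over a whole body in which fewer cells of a type and less RNA per cell cannot be told apart.

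Fish meet fat-soluble foreign chemicals and metals through the gill, skin and gut, and the liver converts much of what enters. Cytochrome P450 enzymes of the 1A subfamily oxidise planar aromatic compounds and are switched on through the aryl hydrocarbon receptor, a ligand-binding transcription factor, which makes them a common marker of exposure in fish. Metallothioneins are small cysteine-rich proteins that hold zinc and copper and bind cadmium, and their genes respond to free zinc. Glutathione peroxidase 4 is a selenium enzyme that reduces peroxides of membrane lipids.

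Library totals lay between 12658946 and 32851570 estimated counts. The libraries fell into 2 sets, defined by the trait given next, that follow the groups. The median gap between transcript length and effective length, which grows with fragment size, was 218.8 to 230.4 bases at 1.13 ng/L, 218.2 to 229.7 at 1.57 ng/L and 214.9 to 221.1 at 16.3 ng/L, against 171.6 to 194.8 bases in the solvent, 6.22 and 55.1 ng/L libraries. For 1.13, 1.57 and 16.3 ng/L, concentration and this library trait cannot be told apart in a comparison with solvent. Comparisons of 1.13 and 1.57 ng/L with 16.3 ng/L, and of 6.22 and 55.1 ng/L with solvent, are between libraries alike in this trait. They stand beside the others below. Effective length did not divide the groups in the same way for every transcript. For cyp1a3 it was 2414 to 2418 bases at 6.22 ng/L against 2500 to 2516 in solvent. For cyp2k4 it was 2253 to 2286 against 2406 to 2422 bases. For mt2 and both gpx4a transcripts these groups overlapped. The 6.22 ng/L and solvent libraries are therefore not alike in every trait.

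Per unit of length, mt2 was the most abundant of the genes in every group and cyp2k4 the least. On the TPM scale (which corrects a level for transcript length), mt2 averaged 829 ± 165, gpx4a 194 ± 25.8, cyp1a3 11.1 ± 2.64 and cyp2k4 1.18 ± 0.21 at 1.13 ng/L (SD, n = 3 each). In solvent the order was the same, with 393 ± 25.4 TPM for mt2, 86.6 ± 2.01 for gpx4a, 5.88 ± 1.56 for cyp1a3 and 2.36 ± 0.74 for cyp2k4. All other levels below are CPM (counts over a common library total), scaled between libraries unless called unscaled. They are not scaled to length, so they compare one gene across groups and not genes with each other. All 4 genes passed the filter on low counts.

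The gene cyp1a3 (transcript NM_001124754.1, 2695 bases, also listed as CYP1A1) codes for a cytochrome P450 of the 1A subfamily. It was highest at 1.57 ng/L and stood lowest at 6.22 and 55.1 ng/L. Pools A, B and C had 10.6, 6.81 and 13.2 CPM in solvent, 17.25, 20.7 and 12.8 CPM at 1.13 ng/L, and 24.9, 28.3 and 20.7 CPM at 1.57 ng/L. They had 7.61, 6.59 and 4.97 CPM at 6.22 ng/L, 7.855, 11.3 and 9.16 CPM at 16.3 ng/L, and 6.28, 5.80 and 7.09 CPM at 55.1 ng/L. All 3 libraries at 1.57 ng/L lay above every solvent library, while the 1.13 ng/L group overlapped with both of them. The 3 groups from 6.22 ng/L up each overlapped with solvent, although 4 of the 6 libraries at 6.22 and 55.1 ng/L lay below the lowest solvent library.

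The mean of cyp1a3 was 24.6 ± 3.81 CPM at 1.57 ng/L against 10.2 ± 3.20 CPM in solvent (SD, n = 3 each), a log2 fold change of 1.27 (SE 0.23). At 1.13 ng/L it was 16.9 ± 3.99 CPM, a log2 fold change of 0.73 (SE 0.23) against the same solvent libraries. These 2 values belong to the contrasts that chose the gene and are given as description. The call at 1.57 ng/L was lost without pool B of that group (adjusted p = 0.0521), without solvent A (adjusted p = 0.056), without solvent B (adjusted p = 0.0537) and in a fit of those 2 groups alone (adjusted p = 0.066). The value at 1.13 ng/L passed the threshold without its pool C (adjusted p = 0.0356) or without solvent C (adjusted p = 0.0351), and with DESeq2 (adjusted p = 0.0212).

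The gene cyp2k4 (NM_001124755.1, 2601 bases) codes for a P450 of the 2K subfamily, which is found in fish. It was the one gene of the 4 that was lower at 1.13 ng/L, and its levels in the other groups lay close together. Pools A, B and C had 4.05, 4.73 and 2.78 CPM in solvent, 1.70, 1.37 and 1.97 CPM at 1.13 ng/L, and 4.47, 4.56 and 5.16 CPM at 1.57 ng/L. They had 2.51, 4.204 and 5.19 CPM at 6.22 ng/L, 4.315, 5.43 and 4.60 CPM at 16.3 ng/L, and 4.67, 5.60 and 3.88 CPM at 55.1 ng/L. Every library at 1.13 ng/L lay below all 15 others. The other 5 groups, solvent among them, overlapped with each other in every pair.

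The mean of cyp2k4 was 1.68 ± 0.30 CPM at 1.13 ng/L against 3.85 ± 0.99 CPM in solvent (SD, n = 3 each), a log2 fold change of -1.19 (SE 0.255), again from the contrast that chose the gene. The gene is thinly covered, with 149 reads over the 3 libraries at 1.13 ng/L and 172 in solvent. The call was lost without pool B at 1.13 ng/L (adjusted p = 0.0658), without solvent B (adjusted p = 0.0596) and in a fit of those 2 groups alone (adjusted p = 0.0673). The 1.57 and 1.13 ng/L groups did not overlap for this gene. Its low level at 1.13 ng/L is what chose it, so this contrast too is a description. The log2 fold change of 1.57 against 1.13 ng/L was 1.49 (SE 0.25), which missed the threshold in edgeR but passed it with DESeq2. In edgeR it passed without 6.22 ng/L pool A (adjusted p = 0.0233) or pool C (adjusted p = 0.0423). Of all genes, edgeR called 0.0447% in this contrast and DESeq2 0.8%.

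The gene mt2 (XM_021597409.1, 419 bases) codes for a metallothionein and was the single metallothionein gene found by symbol. It was higher at both low concentrations. Pools A, B and C had 60.7, 61.9 and 65.45 CPM in solvent, 106, 94.8 and 126 CPM at 1.13 ng/L, and 97.95, 119 and 73.0 CPM at 1.57 ng/L. They had 76.2, 57.2 and 70.5 CPM at 6.22 ng/L, 69.2, 64.8 and 63.6 CPM at 16.3 ng/L, and 84.05, 84.0 and 79.0 CPM at 55.1 ng/L. The 1.13, 1.57 and 55.1 ng/L groups each lay wholly above solvent, and 6.22 and 16.3 ng/L overlapped with it.

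The mean of mt2 was 109 ± 16.0 CPM at 1.13 ng/L against 62.7 ± 2.46 CPM in solvent (SD, n = 3 each), a log2 fold change of 0.80 (SE 0.15). At 1.57 ng/L it was 96.7 ± 23.1 CPM, a log2 fold change of 0.62 (SE 0.15). Both contrasts chose the gene. Its call at 1.13 ng/L held with each library left out in turn. The call at 1.57 ng/L was lost without pool A (adjusted p = 0.0945) or B (adjusted p = 0.142) of that group, and without solvent A (adjusted p = 0.135), B (adjusted p = 0.123) or C (adjusted p = 0.0509). In a fit of those 2 groups alone it had an adjusted p of 0.136. The per-length level of mt2 also depends on its effective length, which was 196.8 to 221.4 bases at 1.13 ng/L and 228.1 to 242.7 bases in solvent. Its TPM averaged 829 ± 165 at 1.13 ng/L against 393 ± 25.4 in solvent. Within 1.13 ng/L this length did not follow the median gap. Pool B had a gap of 230.4 and a length of 221.4 bases, and pool C had 218.8 and 200 bases.

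The gene gpx4a codes for a glutathione peroxidase 4 and has 2 transcripts in the files, XM_021585557.1 (1005 bases) and XM_021585624.1 (987 bases). Summed over both, it was highest at 1.13 ng/L. Pools A, B and C had 45.5, 46.8 and 51.0 CPM in solvent, 102, 109 and 83.5 CPM at 1.13 ng/L, and 61.8, 67.8 and 58.8 CPM at 1.57 ng/L. They had 51.9, 41.3 and 44.7 CPM at 6.22 ng/L, 55.9, 65.8 and 41.4 CPM at 16.3 ng/L, and 45.6, 54.2 and 43.0 CPM at 55.1 ng/L. The 1.13 ng/L libraries lay above all 15 others, and the 1.57 ng/L libraries above all of solvent, 6.22 and 55.1 ng/L.

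The mean of gpx4a was 98.2 ± 13.2 CPM at 1.13 ng/L against 47.8 ± 2.88 CPM in solvent (SD, n = 3 each), a log2 fold change of 1.04 (SE 0.15) in the contrast that chose it. This call held with each library left out in turn and in the fit of the 2 groups alone. At 1.57 ng/L the mean was 62.8 ± 4.58 CPM, a log2 fold change of 0.39 (SE 0.15) that did not pass the threshold (adjusted p = 0.156).

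**Figure D1:**
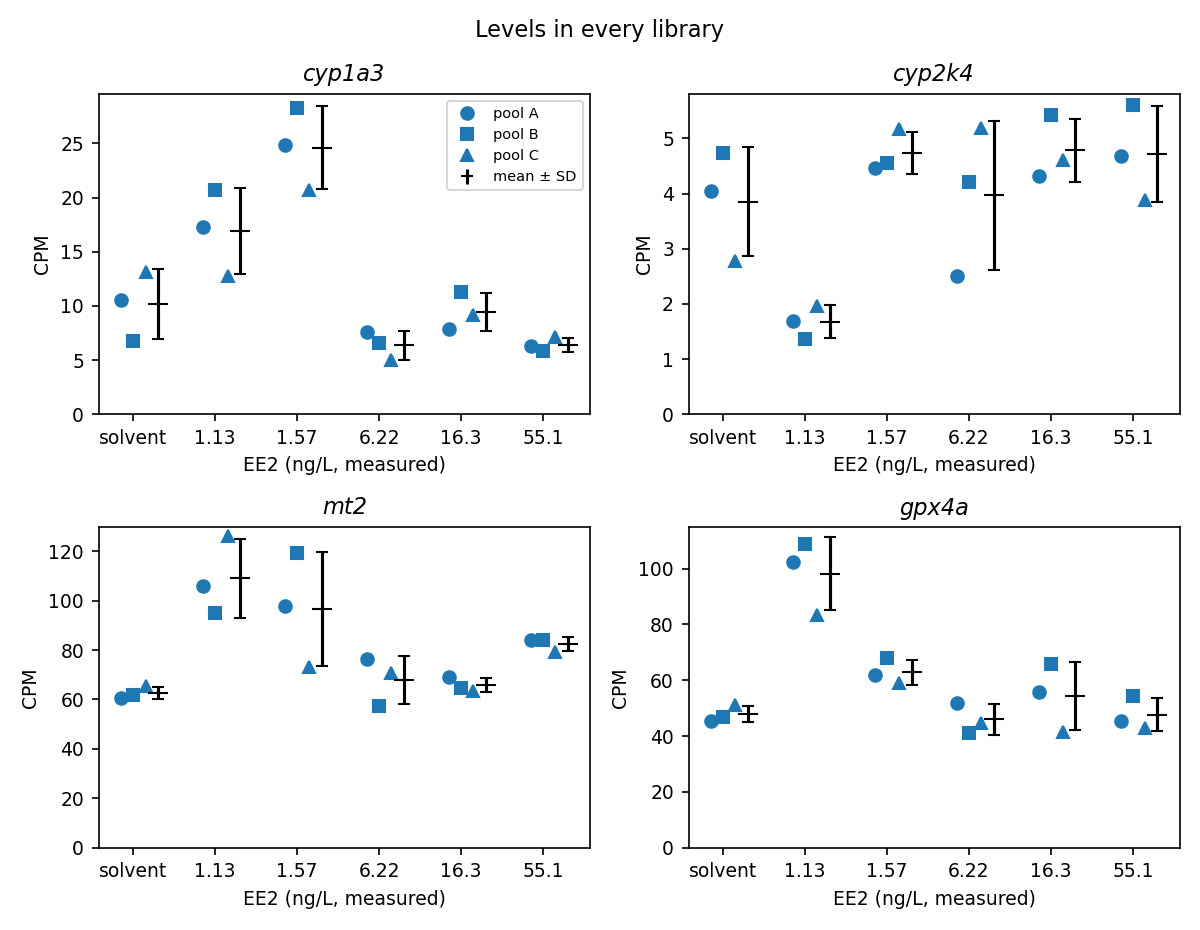
Level in CPM (vertical axes from 0) of each gene in all 18 libraries, by group from solvent to 55.1 ng/L EE2. Symbols are the pools A, B and C and the bar beside them is the mean ± SD of 3 libraries. The mean of cyp1a3 is highest at 1.57 ng/L, whose lowest library (20.68 CPM) is just under the highest at 1.13 ng/L (20.71 CPM), and the 1.13 ng/L libraries are lowest for cyp2k4 and highest for gpx4a.

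In the estimated counts, the difference of gpx4a between 1.13 ng/L and solvent lay with 1 of its transcripts. This is the contrast that chose the gene, and the 2 transcripts were not tested against each other. XM_021585624.1 had 89.0, 102 and 69.7 unscaled CPM in pools A, B and C at 1.13 ng/L against 28.3, 28.5 and 32.0 in solvent. XM_021585557.1 had 19.0, 16.8 and 22.6 CPM at 1.13 ng/L against 22.4, 23.1 and 18.5 in solvent. The first transcript lay wholly above solvent and the other overlapped with it. Fitted as separate features, their log2 fold changes at 1.13 ng/L were 1.52 (SE 0.24) for XM_021585624.1 and -0.15 (SE 0.12) for XM_021585557.1. At 6.22 ng/L against solvent they were -0.415 (SE 0.25) for XM_021585624.1 and 0.33 (SE 0.12) for XM_021585557.1, neither past the threshold.

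XM_021585624.1 held 55.2 to 63.3% of the gene's counts in the solvent libraries, 75.5 to 85.9% at 1.13 ng/L and 67.0 to 71.8% at 1.57 ng/L. Its share was 37.2 to 50.4% at 6.22 ng/L, 50.5 to 63.8% at 16.3 ng/L and 53.0 to 65.3% at 55.1 ng/L. The ranges at 1.13 and 1.57 ng/L lay above that of solvent, the range at 6.22 ng/L lay below it, and those at 16.3 and 55.1 ng/L overlapped with it. How kallisto divides reads between transcripts of a similar sequence can shift counts from one to the other, and the sequences were not compared here. In the authors' deposited table for 1.13 ng/L, which lists transcripts and not genes, XM_021585624.1 has a log2 fold change of 1.54 and XM_021585557.1 of -0.14.

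**Figure D2:**
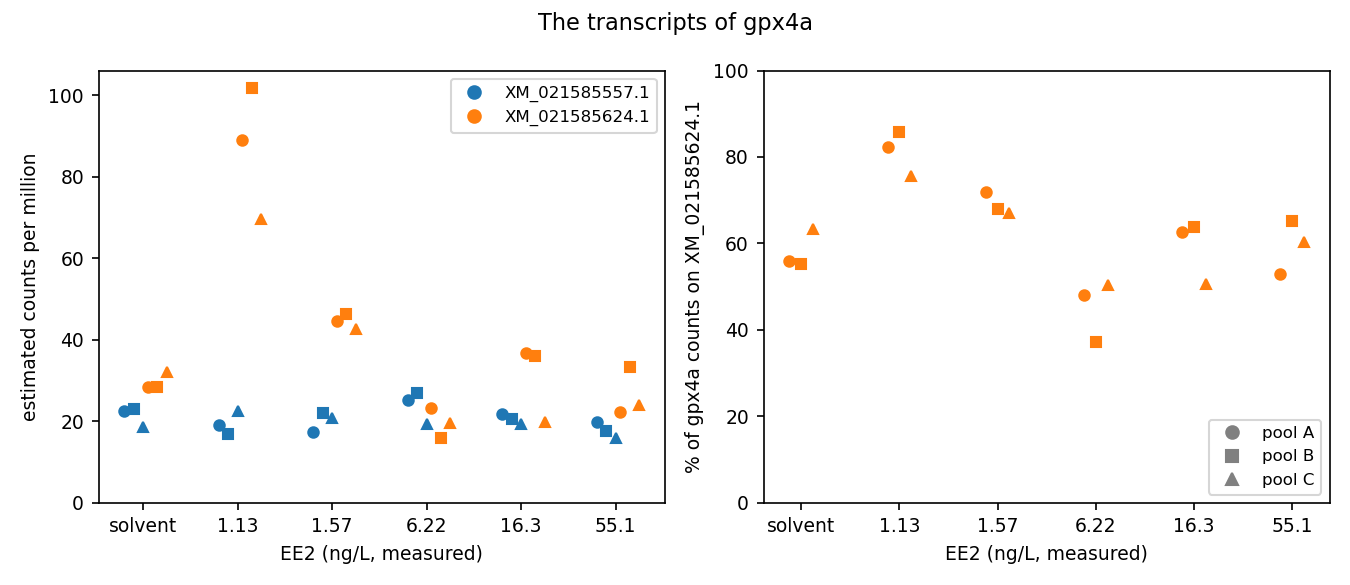
The transcripts of gpx4a in all 18 libraries by group. Left, unscaled CPM for XM_021585557.1 (blue) and XM_021585624.1 (orange), from 0. Right, share in percent of the gene's counts on XM_021585624.1. Symbols are pools A, B and C. XM_021585557.1 runs from 15.9 CPM (at 55.1 ng/L) to 26.9 CPM (at 6.22 ng/L), while the 1.13 ng/L libraries reach 69.7 to 102 CPM for XM_021585624.1.

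At 1.13 ng/L against solvent, 3 of the 4 genes were past the threshold, mt2 and gpx4a higher and cyp2k4 lower. Over all 46999 genes tested 8.06% were called in that comparison, 4.89% higher and 3.17% lower. At 1.57 ng/L 2 of 4 were called, cyp1a3 and mt2, both higher, where 4.27% of all genes were called, 2.85% higher and 1.42% lower. Since these contrasts chose the genes, nothing is read from either count.

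At the 3 concentrations from 6.22 ng/L up, none of the 4 genes passed the threshold against solvent in edgeR or DESeq2. The solvent libraries in these comparisons are the ones that took part in the choice of the genes, so the comparisons are not independent of it or of each other. At 6.22 ng/L, where 0.0723% of all genes were called and 7.68% had an unadjusted p under 0.05, 1 of the 4 had such a p: cyp1a3, with a log2 fold change of -0.675 (SE 0.25, adjusted p = 0.581). At 16.3 ng/L, where 0.366% were called, the 4 log2 fold changes lay between -0.11 (cyp1a3) and 0.315 (cyp2k4), with 0 unadjusted p-values under 0.05, against 12.1% of all genes. At 55.1 ng/L, where 0.372% were called, 2 of the 4 had an unadjusted p under 0.05, as did 10.9% of all genes.

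Those 2 were cyp1a3 and mt2. For cyp1a3 the mean was 6.39 ± 0.65 CPM at 55.1 ng/L against 10.2 ± 3.20 CPM in solvent (SD, n = 3 each), a log2 fold change of -0.68 (SE 0.25, adjusted p = 0.336). For mt2 it was 82.4 ± 2.91 CPM at 55.1 ng/L against 62.7 ± 2.46 CPM in solvent, and the groups did not overlap. The log2 fold change of mt2 was 0.39 (95% interval 0.06 to 0.72, adjusted p = 0.367). The interval of the fold change at 55.1 ng/L was -0.25 to 0.84 for cyp2k4 and -0.34 to 0.33 for gpx4a, on the log2 scale.

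Between the higher concentrations, which share no library with the contrasts that chose the genes, none of the 4 passed in edgeR or in DESeq2. The spread behind these p-values was still estimated over all 18 libraries, so they are not fully independent of the choice. The 16.3 ng/L libraries differ from those at 6.22 and 55.1 ng/L in fragment gap, so in comparisons with them concentration and that trait cannot be told apart. The 55.1 and 6.22 ng/L libraries are alike in the median gap but not in the effective length of cyp1a3, cyp2k4 or mt2. For mt2 it was 229.9 to 250 bases at 55.1 ng/L and 209.3 to 229.6 bases at 6.22 ng/L. For 16.3 against 6.22 ng/L (0.153% of all genes called, 13.9% with an unadjusted p under 0.05) 1 of the 4 had such a p, cyp1a3, at 9.43 ± 1.74 CPM against 6.39 ± 1.33 CPM (SD, n = 3 each). Its log2 fold change was 0.56 (SE 0.24, adjusted p = 0.323) and the groups did not overlap. For 55.1 against 6.22 ng/L (0.0383% called) 0 of the 4 had an unadjusted p under 0.05, against 7.6% of all genes, and the log2 fold changes ran from -0.005 (cyp1a3) to 0.28 (mt2, adjusted p = 0.695). For 55.1 against 16.3 ng/L (0.0447% called) 2 of the 4 had an unadjusted p under 0.05, as did 11.4% of all genes. These were cyp1a3 with a log2 fold change of -0.57 (SE 0.25, adjusted p = 0.408) and mt2 with 0.32 (SE 0.15, adjusted p = 0.439). The groups did not overlap for either gene. In no comparison was the share of all genes whose groups did not overlap counted, and nothing is read from such separations.

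The low concentrations were also set against 16.3 ng/L, whose libraries resemble theirs in total and fragment gap. These values use the 1.13 and 1.57 ng/L libraries that took part in choosing the genes and are a description. At 1.13 against 16.3 ng/L, 3 of the 4 were past the threshold, where 4.3% of all genes were: gpx4a had a log2 fold change of 0.85 (SE 0.15), mt2 of 0.73 (SE 0.15) and cyp2k4 of -1.51 (SE 0.25). That of cyp1a3 was 0.84 (SE 0.23), not past the threshold in edgeR (adjusted p = 0.0558), past it with DESeq2 and past it in edgeR without 1.13 ng/L pool C (adjusted p = 0.0345), solvent B (adjusted p = 0.0348) or solvent C (adjusted p = 0.0442). The call of mt2 was lost without 1.13 ng/L pool C (adjusted p = 0.0556), 16.3 ng/L pool B (adjusted p = 0.0548) or 16.3 ng/L pool C (adjusted p = 0.0706). The call of gpx4a was lost in the fit of the 2 groups alone (adjusted p = 0.0912).

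At 1.57 against 16.3 ng/L, 1 of the 4 was past the threshold, where 0.755% of all genes were. It was cyp1a3, at 24.6 ± 3.81 CPM against 9.43 ± 1.74 CPM (SD, n = 3 each), a log2 fold change of 1.38 (SE 0.23). That call was lost without 16.3 ng/L pool A (adjusted p = 0.0665) or C (adjusted p = 0.0704), without 1.57 ng/L pool A (adjusted p = 0.0513) or B (adjusted p = 0.066), and in the fit of the 2 groups alone (adjusted p = 0.0511). The log2 fold change of mt2 was 0.55 (SE 0.15, adjusted p = 0.12), past the threshold with DESeq2 (adjusted p = 0.0152) and without 1.57 ng/L pool C (adjusted p = 0.0248).

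For 1.57 against 1.13 ng/L, where 0.0447% of all genes were called, none of the 4 passed in edgeR. Of the 4, 3 had an unadjusted p under 0.05, as did 5.55% of all genes. DESeq2 called 2 of the 4, cyp2k4 and gpx4a, and 0.8% of all genes. These libraries took part in choosing the genes, and nothing is read from the counts. The log2 fold change of gpx4a was -0.645 (SE 0.15) and that of cyp1a3 0.54 (SE 0.22), while that of mt2 was -0.17 (SE 0.15).

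**Figure D3:**
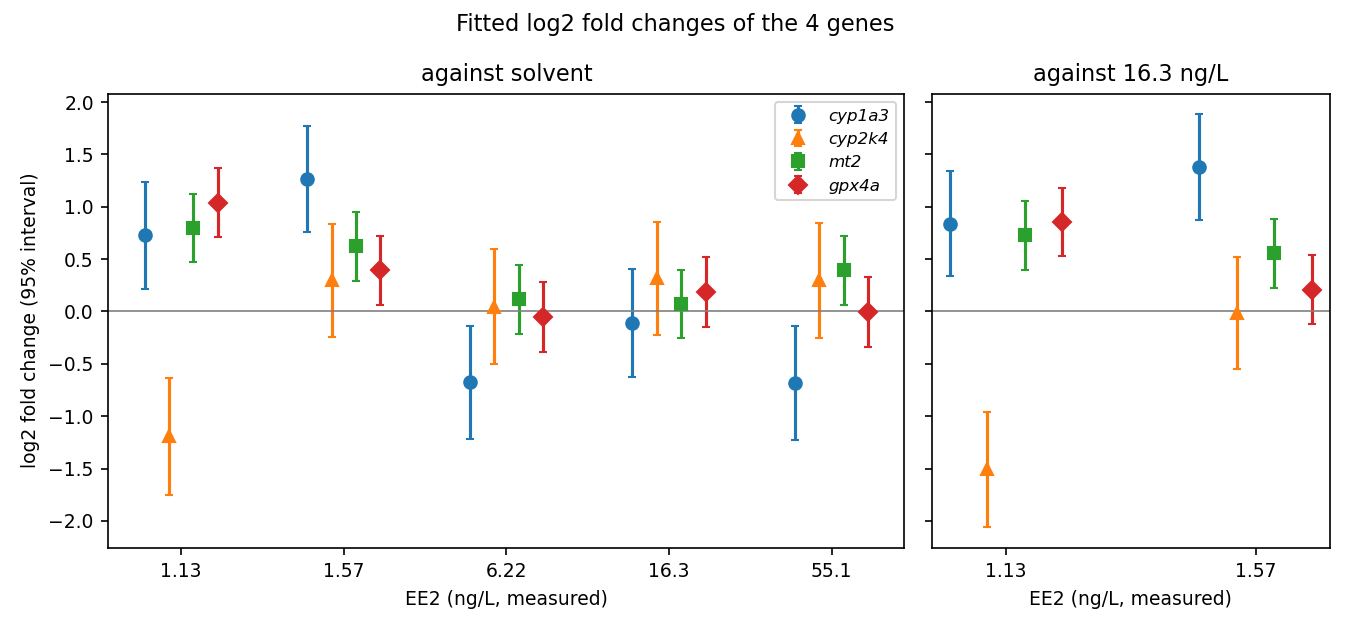
Fitted log2 fold changes with 95% intervals for the 4 genes. Left, each EE2 concentration against solvent. Right, 1.13 and 1.57 ng/L against 16.3 ng/L, whose libraries are alike in fragment gap. The panels share the 1.13 and 1.57 ng/L libraries, which took part in choosing the genes. On the left the values at 1.13 ng/L run from 1.04 for gpx4a to -1.19 for cyp2k4.

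The authors' deposited table, made by transcript, has adjusted p-values under 0.05 for mt2, cyp2k4, cyp1a3 and XM_021585624.1 of gpx4a at 1.13 ng/L. In it the log2 fold change of cyp1a3 at 1.13 ng/L is 0.74 (SE 0.24, adjusted p = 0.0168). The authors' deposited table for 1.57 ng/L has such values for cyp1a3 (log2 fold change 1.27) and mt2 (0.62), and 0.0599 for XM_021585624.1. In the authors' deposited tables for the 3 concentrations from 6.22 ng/L up, none of the 5 transcripts has an adjusted p under 0.05. The share of all transcripts under that limit is 17.5% in the table for 1.13 ng/L, 13.2% for 1.57 and 1.32% for 6.22. It is 3.64% for 16.3 and 3.08% for 55.1. The authors' tables were made from the same libraries as the fits that chose the genes, and are no independent evidence.

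The measured relatives of these genes were called by neither edgeR nor DESeq2 against solvent at any concentration, and the single unadjusted p under 0.05 among them was that of cyp1c3 at 1.13 ng/L. Among the other family 1 P450 genes, cyp1c1, cyp1c2 and cyp1c3 were scarce, at means of 0.56, 1.35 and 1.12 CPM in solvent, and cyp1b1 did not pass the filter on low counts. The level of cyp1c3 was 1.93 ± 0.30 CPM at 1.13 ng/L against 1.12 ± 0.21 CPM in solvent (SD, n = 3 each), a log2 fold change of 0.78 (SE 0.30, adjusted p = 0.129). For cyp2k5, the other 2K gene found, it was 17.2 ± 3.72 CPM at 1.13 ng/L against 23.1 ± 1.87 CPM in solvent, a log2 fold change of -0.43 (SE 0.24, adjusted p = 0.303). At 1.57 ng/L cyp2k5 stood at 17.9 ± 3.43 CPM. Among the other glutathione peroxidases, at 1.13 ng/L against solvent, the log2 fold change was -0.24 (SE 0.20) for gpx1, -0.26 (SE 0.47) for gpx2 and -0.06 (SE 0.12) for gpx7, against 1.04 for gpx4a. Whether gpx4a differed from its relatives in this response was not tested.

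Lists of related genes are given without the 4 themselves. At 1.13 ng/L edgeR called 3 of 15, 0 of 18, 2 of 13 and 3 of 25 genes in the lists below, beside 8.06% of all genes, and at 1.57 ng/L 2 of 15, 0 of 18, 0 of 13 and 1 of 25, beside 4.27%. At 1.13 against 16.3 ng/L, groups alike in fragment gap, it called 1 of 15, 1 of 18, 1 of 13 and 2 of 25, beside 4.3%. These were aox5, tfa, msrb2 and selenop2, higher, and comtd1, lower, and not fmoda, porb, slc30a1a or glrx. The calls of tfa, msrb2 and selenop2 were lost in the fit of those 2 groups (adjusted p of 0.0576 to 0.0979), and that of selenop2 without single libraries. At 1.57 against 16.3 ng/L it called 0 in each list, beside 0.755%. Among 15 tested genes of xenobiotic sensing and phase I metabolism, 3 rose and 0 fell at 1.13 ng/L, with a median log2 fold change of 0.15 against 0.0015 over all genes, and 2 rose at 1.57 ng/L (median 0.11). Unadjusted p-values under 0.05 numbered 6 at 1.13 ng/L and 3 at 1.57 ng/L, and DESeq2 called 4 and 3. Over all genes, 23.5% and 20.2% had such a p at these concentrations, and DESeq2 called 13.7% and 9.94%. From 6.22 ng/L up, DESeq2 called 0.733%, 2.16% and 1.76% of all genes, in rising order of concentration. These shares also belong beside the counts of the other lists. The xenobiotic list was matched by symbol and also took in cyp11b and arntl2, which belong to steroid synthesis and the clock. It took in fmoda too, by the shape of its symbol alone, which in fish names fibromodulin a, a matrix protein. The gene fmoda is among those counted as called at 1.13 and at 1.57 ng/L. The gene aox5, an aldehyde oxidase, stood at 13.6 ± 0.79 CPM at 1.13 ng/L against 7.095 ± 0.50 CPM in solvent (SD, n = 3 each), a log2 fold change of 0.94 (SE 0.14). It was also called at 1.57 ng/L (log2 fold change 0.56, adjusted p = 0.0396). The gene fmoda rose to 101.3 ± 8.49 CPM at 1.13 ng/L and 101.5 ± 14.5 CPM at 1.57 ng/L, against 57.8 ± 2.77 CPM in solvent. The gene porb, a reductase that passes electrons to P450 enzymes, had a log2 fold change of 0.36 (SE 0.096) at 1.13 ng/L. Its call was lost without 1.13 ng/L pool A or B or any of the 3 solvent pools (adjusted p of 0.0592 to 0.132), and that of aox5 at 1.57 ng/L without any of 11 libraries, among them 1.57 ng/L pools A and B and each solvent pool (adjusted p of 0.05 to 0.163). In the fit of the 2 groups alone the adjusted p was 0.0793 for porb at 1.13 ng/L and 0.113 for aox5 at 1.57 ng/L. From 6.22 ng/L up, no gene of the list was called by edgeR or DESeq2, with 3, 1 and 1 unadjusted p-values under 0.05 in rising order of concentration.

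Phase II enzymes conjugate the products of phase I, and export pumps carry them out of the cell. Of 18 such genes, edgeR called 0 at 1.13 ng/L (median log2 fold change 0.05) and 0 at 1.57 ng/L (median -0.01). There, 3 and 5 had an unadjusted p under 0.05 and DESeq2 called 3 at each. One gene, comtd1, which carries a catechol O-methyltransferase-like domain, was called higher at 16.3 and 55.1 ng/L. Its level was 30.2 ± 2.37 CPM at 16.3 ng/L and 26.95 ± 1.85 CPM at 55.1 ng/L, against 16.0 ± 1.13 CPM in solvent (SD, n = 3 each). The log2 fold changes were 0.92 (SE 0.11, adjusted p = 0.00152) at 16.3 ng/L and 0.755 (SE 0.12, adjusted p = 0.00831) at 55.1 ng/L, and the second of these calls was lost without solvent A (adjusted p = 0.0562) and in the fit of the 2 groups alone (adjusted p = 0.0633). At the other concentrations comtd1 had 16.2 ± 0.67 CPM at 1.13 ng/L, 21.4 ± 3.58 CPM at 1.57 ng/L (log2 fold change 0.42, SE 0.114, adjusted p = 0.0534) and 22.4 ± 2.30 CPM at 6.22 ng/L. At 6.22 ng/L edgeR called 0 of the 18, with 3 unadjusted p-values under 0.05 and 1 DESeq2 call.

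Of 13 other genes of metal binding and transport, 2 rose at 1.13 ng/L and 0 fell (median log2 fold change 0.13). There, 5 had an unadjusted p under 0.05 and DESeq2 called 3. The zinc exporter gene slc30a1a stood at 16.3 ± 0.79 CPM at 1.13 ng/L against 11.55 ± 0.81 CPM in solvent (SD, n = 3 each), a log2 fold change of 0.49 (SE 0.11). The transferrin gene tfa, whose product carries iron in plasma and is made by the liver, stood at 867 ± 186 CPM against 470 ± 111 CPM, a log2 fold change of 0.885 (SE 0.19). Both calls were lost without 1.13 ng/L pool A or B or solvent A or B, with an adjusted p of 0.0569 to 0.0752 for slc30a1a and of 0.0533 to 0.0739 for tfa, and that of tfa also in the fit of the 2 groups alone (adjusted p = 0.0825). At 1.57 ng/L edgeR called 0 of the 13 (median 0.09), with 1 unadjusted p under 0.05 and 1 DESeq2 call. From 6.22 ng/L up, edgeR again called 0, with 1 unadjusted p under 0.05 at each and 1 DESeq2 call, at 55.1 ng/L.

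Of 25 other genes of peroxide and thiol defence, 2 rose and 1 fell at 1.13 ng/L, and the median log2 fold change was -0.10. There, 8 had an unadjusted p under 0.05 and DESeq2 called 5. The gene msrb2, a methionine sulfoxide reductase, stood at 14.75 ± 0.54 CPM at 1.13 ng/L against 8.05 ± 0.93 CPM in solvent (SD, n = 3 each), a log2 fold change of 0.87 (SE 0.125). The gene selenop2, a selenoprotein P, had a log2 fold change of 0.63 (SE 0.15), and its call was lost without 1.13 ng/L pool A or B or solvent A or B (adjusted p of 0.0611 to 0.101) and in the fit of the 2 groups alone (adjusted p = 0.072). The gene glrx, a glutaredoxin, fell to 37.7 ± 1.38 CPM at 1.13 ng/L and 38.3 ± 2.27 CPM at 1.57 ng/L, against 50.2 ± 1.63 CPM in solvent. Its log2 fold changes were -0.41 (SE 0.085) and -0.39 (SE 0.085), and the call at 1.57 ng/L was lost without 1.57 ng/L pool A or B or solvent A or B (adjusted p of 0.0624 to 0.0931) and in the fit of the 2 groups alone (adjusted p = 0.0627). At 1.57 ng/L glrx was the single call of edgeR in this list (median 0.05), where DESeq2 called 3 and 5 had an unadjusted p under 0.05. From 6.22 ng/L up, neither tool called a gene of it, with 1 unadjusted p under 0.05 at each.

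**Figure D4:**
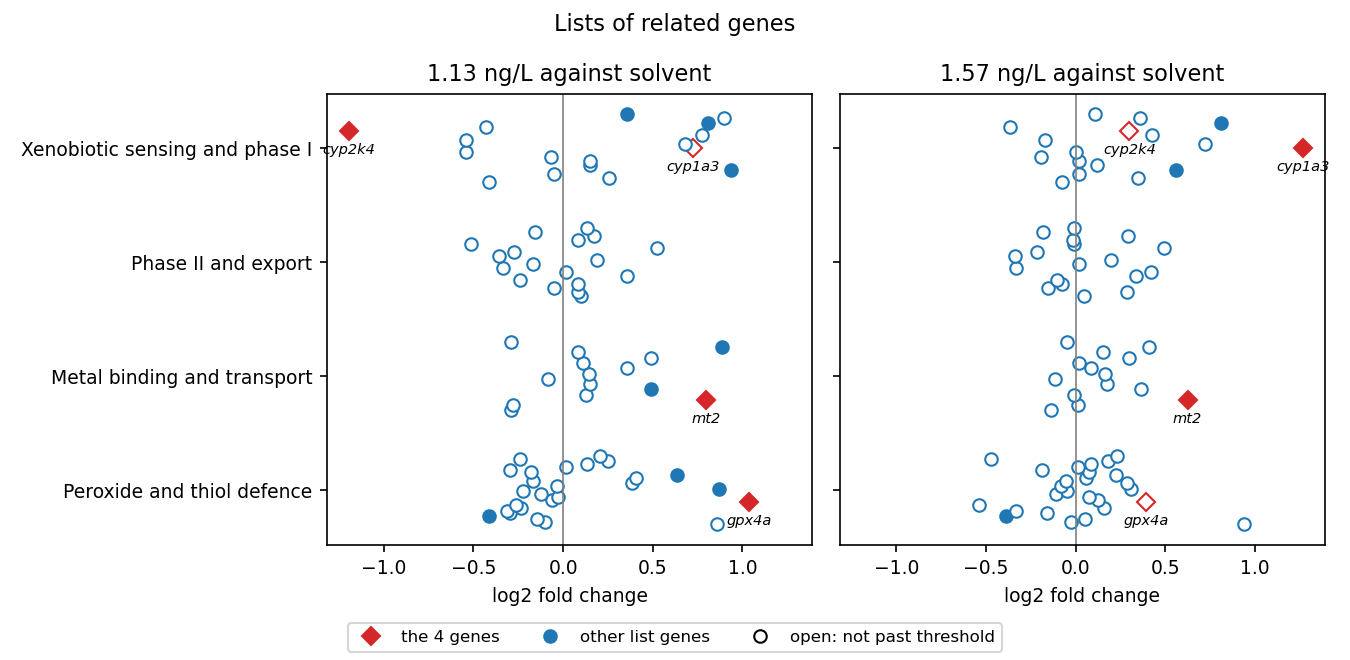
Log2 fold changes against solvent at 1.13 ng/L (left) and 1.57 ng/L (right) for the genes of 4 lists. Red diamonds are cyp1a3, cyp2k4, mt2 and gpx4a, and blue circles the other genes. Filled symbols passed the threshold and open ones did not. Most blue circles are open and lie on both sides of 0, and the list medians at 1.13 ng/L run from -0.10 to 0.15.

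Summed levels of tissue markers, given here as unscaled CPM, stood apart from solvent in several groups, at low and at higher concentrations. The scaling factors were 0.992 to 1.117 in solvent and 0.924 to 0.942 at 55.1 ng/L, so such a separation need not hold on the scaled levels. The sum of 11 hepatocyte markers, to which apobec2a was matched by the shape of its symbol alone, was 905 to 1112 CPM in solvent, 1236 to 1661 CPM at 1.13 ng/L and 1046 to 1245 CPM at 1.57 ng/L. It was 693 to 859.5 CPM at 6.22 ng/L, 729 to 891 CPM at 16.3 ng/L and 694 to 847 CPM at 55.1 ng/L. On this unscaled level each of these lay below solvent. A large share of this sum is tfa, which is in the metal list too and averaged 867 scaled CPM at 1.13 ng/L against 470 in solvent. At 1.13 ng/L tfa and apoba rose, but no more than 5 of the 11 markers lay above 0 and the median log2 fold change was -0.085, and at 1.57 ng/L 5 of the 11 lay above 0 with a median of -0.044. At 6.22 ng/L 7 of the 11 lay above 0 (median 0.143), at 16.3 ng/L 4 (median -0.016) and at 55.1 ng/L 5 (median -0.004). At 55.1 ng/L edgeR called ahsg2 lower (log2 fold change -1.57) and rbp4 higher (1.04).

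The sum of 7 epidermis and gill markers was 1991 to 3419 CPM at 1.13 ng/L and 2847 to 3683 CPM at 1.57 ng/L, against 1540 to 2370 CPM in solvent. Most of this sum is krt5, with a mean of 2048 scaled CPM over all libraries, and edgeR did not call krt5 against solvent. Of the 7, agr2 and cldn1 rose at each of these concentrations, and 6 of 7 lay above 0 at 1.13 ng/L and 7 of 7 in the 1.57 ng/L comparison. The sum of 4 intestine markers was 23.7 to 45.2 CPM at 1.13 ng/L, 30.8 to 49.4 CPM at 1.57 ng/L and 34.0 to 41.9 CPM at 6.22 ng/L, against 52.8 to 60.4 CPM in solvent. The erythrocyte sum was 225 to 261 CPM at 1.13 ng/L and 167 to 273 CPM at 55.1 ng/L, against 283 to 368 CPM in solvent. None of the intestine markers was called against solvent in edgeR, where 3 of the 3 tested had an unadjusted p under 0.05 at 1.13 ng/L and all 3 were called lower by DESeq2. Over all genes the shares at 1.13 ng/L were 23.5% and, called by DESeq2 in either direction, 13.7%. At 1.13 against 16.3 ng/L, groups alike in fragment gap, edgeR called 2 of these 3 lower, beside 4.3% of all genes. They were fabp2 (log2 fold change -1.15) and vil1 (-0.71). Of 11 hepatocyte markers it called 2 higher there, tfa and apoba, and 2 lower, ambp and apobec2a. It called 0 of the epidermis and gill, erythrocyte and macrophage markers in that comparison. Of 6 erythrocyte and 2 macrophage markers tested, neither tool called any at 1.13 or 1.57 ng/L, with 0 unadjusted p-values under 0.05. All hepatocyte, epidermis, gill and intestine markers had reads in every group, and no gene was matched to the list for yolk and pancreas. The part of these shifts in the levels of cyp1a3, cyp2k4, mt2 and gpx4a was not tested.

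Across the 18 libraries, the log2 level of gpx4a ran with that of mt2 (Pearson r = 0.71) and against that of cyp2k4 (r = -0.71). For cyp1a3, r was 0.67 with gpx4a, 0.55 with mt2 and -0.35 with cyp2k4, and for mt2 with cyp2k4 it was -0.47. Among 5963 genes with a symbol and a mean of at least 1 CPM, the levels most like those of cyp1a3 were ahr2 (r = 0.94), mthfd1l (r = 0.94) and klf5l (r = 0.94). The mean of ahr2 was 15.6 CPM in solvent, then 18.6, 19.85, 13.9, 15.4 and 12.7 CPM from 1.13 to 55.1 ng/L. In edgeR ahr2 did not pass the threshold against solvent at any of them, and came nearest at 1.57 ng/L (log2 fold change 0.35, adjusted p = 0.0731). Those most like gpx4a were cathy (r = 0.94), lipea (r = 0.94) and cspg4 (r = 0.94). The mean of lipea was 2.31 CPM in solvent, then 8.57, 4.615, 1.996, 2.64 and 2.01 CPM from 1.13 to 55.1 ng/L. Those most like mt2 were moxd1 (r = 0.83), cabin1 (r = 0.82) and zgc:158398 (r = 0.82), and those most like cyp2k4 were ppce (r = 0.795), btc (r = 0.79) and rho (r = 0.78). These correlations over 18 libraries describe points that share groups, depth and fragment size, and carry no test.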

How the data were processed

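The members and the lists of related genes were chosen with earlier results of these data known. For 18 strand-specific poly(A) libraries the authors used Trimmomatic 0.38 for trimming, kallisto for quantification and DESeq2 for comparison, per the submitters' processing notes, with the kallisto and DESeq2 versions and the genome build not given in the sources used here. Each deposited table gives estimated counts, TPM, length and effective length in bases per transcript, per the file headers. The authors' deposited DESeq2 tables hold a mean of normalised counts (a signal), a log2 fold change, its standard error (a score without fixed range) and p-values, per the file headers. They are quoted as the authors' own.

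Names came from RefSeq's table for assembly USDA_OmykA_1.1, joined on the unversioned accession, and 42410 of 79244 (53.5%) matched, 1083 with the same version. Unmatched transcripts were kept as single features, so other copies of a gene may stand apart from it. Estimated counts were summed by gene and rounded. All 18 libraries entered 1 model of edgeR 4.0.16 (R 4.3.3) with filterByExpr, TMM scaling and the quasi-likelihood F test (12 residual degrees of freedom, 46999 genes tested). P-values were adjusted by Benjamini-Hochberg over all of them, and SE is the log2 fold change over the square root of F. The 95% intervals add and subtract this SE times a t quantile on 12 degrees of freedom, which is not the reference of the F test. For mt2 at 55.1 against 16.3 ng/L the interval was -0.005 to 0.652, while the unadjusted p of the F test was 0.0497. The spread behind every p-value is that between the pools of a group, estimated over all groups in the fit, and it may be technical. The test was also run, after the fits, on simulated counts with known changes, and nothing is read from that run here.

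The text names the 4 members, their families, each called gene of a list and, for each member, the 3 genes with the highest Pearson r over 18 libraries (log2 CPM, prior count 2, mean of at least 1 CPM). Alternatives were DESeq2 1.42.0, its size factors in edgeR, no filter, the replicate letter as a block, a fit of 2 groups alone, removal of the length trend, the most abundant transcript of gpx4a alone, and each library left out. A table that repeats the estimated counts was left out.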

Additional observations from a re-analysis of the deposited data

How the results depend on the processing

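The members' called directions against solvent held under every alternative run, and losses of calls with a library left out stand beside the values above. The cause of the changes listed here was not tested. Against solvent, in order of rising concentration, edgeR called 3787, 2006, 34, 172 and 175 genes. A fit of the 2 groups alone called 1624, 487, 15, 93 and 59, and DESeq2 6418, 4649, 343, 1011 and 825. With each library left out, 1.13 ng/L had 1350 to 3892 calls, 1.57 ng/L had 326 to 2481, 16.3 ng/L had 97 to 301 and 55.1 ng/L had 87 to 188. For 1.57 against 1.13, 1.13 against 16.3 and 1.57 against 16.3 ng/L, edgeR called 21, 2023 and 355 genes, the fit of 2 groups 0, 566 and 104, DESeq2 374, 4502 and 1643, and left-out libraries gave 13 to 26, 733 to 2211 and 106 to 395. For 16.3 against 6.22, 55.1 against 6.22 and 55.1 against 16.3 ng/L it called 72, 18 and 21, the fit of 2 groups 0 in each, DESeq2 1547, 319 and 639, and left-out libraries gave 8 to 111, 1 to 34 and 7 to 43. Without the filter, 37 genes were called for 16.3 against 6.22 ng/L.

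Of the 4 members, 2 were called at 1.57 ng/L against solvent, 0 in the fit of 2 groups and 0 to 2 with a library left out. For 1.57 against 1.13 ng/L, 0 were called, 2 with DESeq2 and 0 to 1 with a library left out, and for 1.57 against 16.3 ng/L 1, 0 in the fit of 2 groups, 2 with DESeq2 and 0 to 2 with a library left out. Uncalled log2 fold changes near 0 changed sign. With a library left out they ran from -0.197 to 0.287 (cyp2k4, 6.22 ng/L against solvent), -0.152 to 0.014 (gpx4a, 6.22 ng/L), -0.332 to 0.115 (cyp1a3, 16.3 ng/L), -0.112 to 0.064 (gpx4a, 55.1 ng/L), -0.086 to 0.086 (cyp2k4, 1.57 against 16.3 ng/L), -0.16 to 0.039 (mt2, 16.3 against 6.22 ng/L), -0.151 to 0.137 (cyp1a3, 55.1 against 6.22 ng/L), -0.054 to 0.147 (gpx4a, 55.1 against 6.22 ng/L) and -0.158 to 0.11 (cyp2k4, 55.1 against 16.3 ng/L). Removing the length trend gave 0.003 for mt2 (16.3 against 6.22 ng/L), 0.002 for cyp1a3 (55.1 against 6.22 ng/L) and 0.007 for cyp2k4 (55.1 against 16.3 ng/L). The most abundant transcript of gpx4a gave 0.032 at 55.1 ng/L against solvent, and the fit of 2 groups 0.009 for cyp1a3 (55.1 against 6.22 ng/L).

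The replicate letters did not pair the libraries: deviations of same-letter libraries correlated at -0.0415 to 0.0451 (median 0.00328, 45 pairs), and 6 of 18 libraries correlated best with their own letter. With the replicate block, 1 member was called at 1.57 ng/L against solvent, where mt2 had an adjusted p of 0.0557 and the list gene aox5 of 0.0557, and the log2 fold change of cyp1a3 for 55.1 against 6.22 ng/L was 0.002. The block called 16 genes for 16.3 against 6.22 ng/L, 4 for 55.1 against 6.22 ng/L and 11 for 55.1 against 16.3 ng/L.

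Depth limits cyp2k4 most, at 149 to 406 reads per group. Whole-fish pools cannot place a change in a tissue, 3 pools per group leave wide intervals, and the 1.13, 1.57 and 16.3 ng/L libraries differ from the others in depth and fragment gap.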
